A study of Mus musculus with 6 samples.

Results

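The genes described here are 10 transcription factors that set up the cell lineages of the lung, namely Nkx2-1, Foxa1, Foxa2, Gata6, Foxf1, Tbx4, Tbx5, Sox2, Sox9 and Foxp2. They were chosen by symbol, all 10 were found among the 41388 genes of the count table, and all 10 passed the filter on low counts. RNA was sequenced from whole lungs of 3 control C57BL/6J mice (WT1 to WT3) and 3 mice with a deletion of the start of Zpbp2 (KO1 to KO3). The lungs were taken from adult animals at Zeitgeber time 7 (ZT7), 7 h after lights on. Per the study the KO strain, whose name gives 129S7 as the origin of the allele, has a C57BL/6J background. It lacks the first exons and part of the promoter of Zpbp2, and was kept in the same colony as the WT mice. The labels give C57BL/6J as the strain of both genotypes and name no sex. The study asked whether the Zpbp2 region and the clock regulate one another, and the comparison here asks whether the factors that define lung cell identity differed between KO and WT.

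Total counts were 59134950 to 71354388 per library. KO2 and KO3 were nearly as alike as repeat counts of 1 library, with a median variance of 1.71 to 1.93 times the counting variance for genes below 20000 counts in the pair, against 1.86 to 12.9 between WT libraries and 3.74 to 21 between KO1 and either of them. The titles give every library an identifier of its own, KO2 and KO3 included, and the study's methods speak of separate mice, so the labels do not give KO2 and KO3 as 1 animal. Because of their likeness they were counted as 1 sample all the same, giving n = 3 (WT) and n = 2 (KO). The number of calls moves with this choice, among others. With 6 separate libraries 4 of the 10 factors were called instead of 0, while 18.9% of all tested genes were called instead of 2.28%. WT3 and KO1 stood apart from the other libraries by squamous epithelium transcripts (Krt4, Krt13 and 13 other genes), which summed to 4670 and 8939 CPM against 26.2 to 38.6 CPM elsewhere. CPM is the count per 1e6 of the scaled library size. The targeted gene Zpbp2 was covered by 20, 15 and 7 counts in the WT libraries, against 1, 0 and 0 in the KO libraries. Lung identity was checked with Sftpc of alveolar type 2 cells, at 12104 to 19515 CPM in every library, and Ager of alveolar type 1 cells, at 2035 to 2875 CPM.

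In the embryo the lung is specified where the foregut endoderm turns on Nkx2-1, and the epithelium then divides into a proximal part that makes the airways and is marked by Sox2, and distal tips that make the alveoli and are marked by Sox9. NKX2-1, FOXA1, FOXA2 and GATA6 remain in the adult epithelium, where NKX2-1 and its partners bind the promoters of surfactant and secretoglobin genes. The surrounding mesenchyme carries FOXF1, which answers to hedgehog signals from the epithelium and also acts in endothelium, and TBX4 and TBX5, which drive the signals that make the buds branch.

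None of the 10 factors passed the edgeR quasi-likelihood test at an adjusted p of at most 0.05, a threshold that 2.28% of the 18660 tested genes passed (1.38% with higher and 0.906% with lower levels in KO). Unadjusted p was at most 0.05 for 5 of the 10, namely Nkx2-1, Foxa2, Sox2, Sox9 and Foxp2, against 27.3% of all tested genes. With 6 separate libraries 4 passed, Nkx2-1, Foxa2 and Sox2 with higher and Sox9 with lower levels in KO, against a background of 18.9% of the 18014 genes tested (9.81% higher and 9.07% lower), and the same 4 passed with DESeq2, which called 21.5% of all genes, while 0 passed with the edgeR exact test, which called 1.12%. The KO and WT libraries did not overlap for 7 of the 10 (4 with KO above and 3 with KO below), where 40.8% of all tested genes do not overlap (20% above and 20.8% below). The median log2 fold change of KO over WT (log2 FC) of the 10 was 0.07, beside 0.015 for all tested genes. With library size alone as the scaling, 38.2% of called genes were higher in KO instead of 60.3%, and the factors kept their directions.

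**Figure D1:**
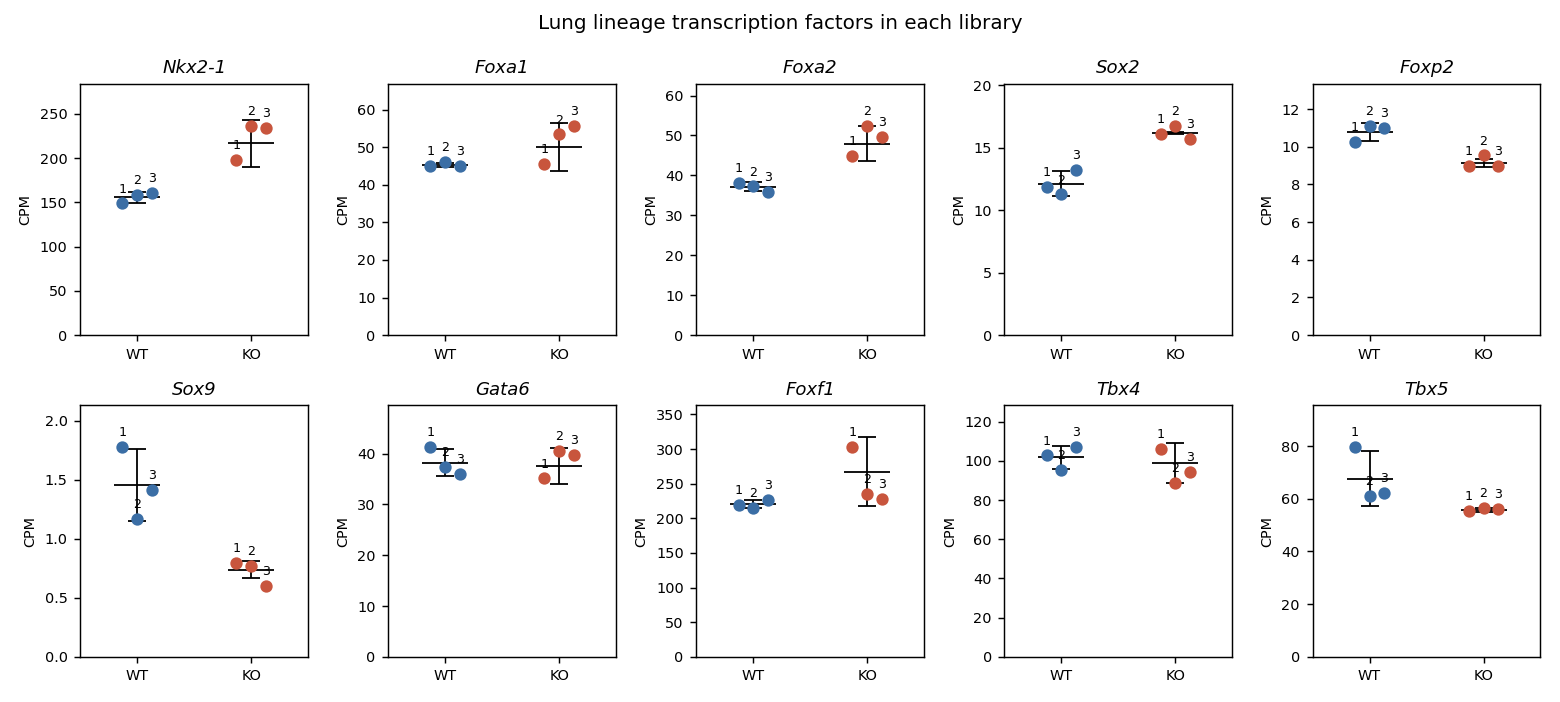
Level of each factor in each library, in CPM from 0, with numbered points for the libraries and bars for the mean ± SD (n = 3 for WT, n = 2 for KO with KO2 and KO3 averaged). Nkx2-1, Foxa2, Sox2 and Foxf1 have all KO points above all WT points, and Foxp2, Sox9 and Tbx5 have them below.

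Nkx2-1, the master factor of lung epithelium, is a protein-coding gene on the minus strand of chromosome 12 (GRCm38, 56531958 to 56536908). It was at 149, 159 and 160 CPM in WT1 to WT3 and at 198, 237 and 234 CPM in KO1 to KO3. All KO libraries lay above all WT libraries, with KO1 between the WT group and the pair KO2 and KO3. The means were 156 ± 6.22 CPM (n = 3, SD) in WT and 217 ± 26.3 CPM (n = 2, SD) in KO. This gave a log2 FC of 0.48 (SE 0.09, 95% interval 0.25 to 0.71) with an edgeR adjusted p of 0.0586, above 0.05. By p it ranked 966 among the 18660 tested genes, of which 426 were called. With 6 separate libraries the log2 FC was 0.52 (SE 0.08) with an adjusted p of 0.0116. An offset for gene length and GC content gave 0.37 (adjusted p 0.209). With 10 or more counts asked of every library, where fewer genes are tested, the adjusted p was 0.0465, and over all 18 alternatives it ran from 3.57e-05 to 0.37.

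Foxa2, a forkhead factor that opens chromatin in endoderm, lies on chromosome 2 (148042877 to 148046969, minus strand). It was at 38.2, 37.3 and 36.0 CPM in WT and at 44.8, 52.5 and 49.5 CPM in KO. The groups did not overlap, and KO1 was again the lowest KO library. The means were 37.1 ± 1.11 CPM (n = 3, SD) and 47.9 ± 4.4 CPM (n = 2, SD), a log2 FC of 0.37 (SE 0.08) with an edgeR adjusted p of 0.0634. With 6 separate libraries the adjusted p was 0.0133. With the offset for gene length and GC content the log2 FC was 0.23 (adjusted p 0.386).

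Foxa1, the close paralog of Foxa2 with overlapping roles in airway branching, lies on chromosome 12 (57540628 to 57546916, minus strand), close to Nkx2-1. It was at 45.0, 46.0 and 45.0 CPM in WT and at 45.7, 53.5 and 55.8 CPM in KO, so that KO1 lay inside the WT range and the other KO libraries above it. The log2 FC was 0.15 (SE 0.09, 95% interval -0.07 to 0.37, edgeR adjusted p 0.332). It was 0.27 without KO1 and 0.01 without KO2 and KO3, each with 1 KO sample left. Within a library the count of Foxa1 was 1.18, 1.24 and 1.25 times that of Foxa2 in WT and 1.02, 1.02 and 1.13 times in KO. These ratios did not overlap between the genotypes and are given without a test.

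Sox2, the factor of the proximal airway epithelium and of basal cells, is a single-exon gene on chromosome 3 (34650405 to 34652461, plus strand). It was at 11.8, 11.3 and 13.2 CPM in WT and at 16.1, 16.8 and 15.7 CPM in KO. Every KO library was above every WT library, and WT3 was the highest of WT. The means were 12.1 ± 1.0 CPM (n = 3, SD) and 16.2 ± 0.0959 CPM (n = 2, SD), a log2 FC of 0.42 (SE 0.10) with an edgeR adjusted p of 0.0742, and of 0.0194 with 6 separate libraries. Sox2 is also a factor of squamous epithelium, whose transcripts marked WT3 and KO1. With a term for these transcripts in the fit the log2 FC of Sox2 was 0.41 (adjusted p 0.0479). Without those libraries, an alternative chosen after the data were seen, it was 0.49. That leaves 1 KO sample, the merged KO2 and KO3, whose spread is assumed to be that of WT1 and WT2, so its adjusted p of 0.0378 says nothing of the spread between KO mice. With the offset for gene length and GC content the log2 FC of Sox2 was 0.31 (adjusted p 0.143). Sox2 lies within the span of the noncoding gene Sox2ot on the same strand with 0 shared exon bases in the annotation. The count table has no gene under the annotated identifier of Sox2ot, and its gene of that symbol under another identifier had 82 to 98 counts per library, against 791 to 1041 for Sox2.

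The promoters of these epithelial factors are shown because their genes had the higher estimates in KO. RefSeq promoters on GRCm38.p6, each 250 bases before and 50 bases after a start site, matched Nkx2-1, Foxa1, Foxa2, Sox2 and Tbx4, with 3 start sites for Foxa2. They are written 5′ to 3′ on the strand of the gene, and capitals mark the motif matches.
Nkx2-1, chr12:56536859-56537158, minus strand: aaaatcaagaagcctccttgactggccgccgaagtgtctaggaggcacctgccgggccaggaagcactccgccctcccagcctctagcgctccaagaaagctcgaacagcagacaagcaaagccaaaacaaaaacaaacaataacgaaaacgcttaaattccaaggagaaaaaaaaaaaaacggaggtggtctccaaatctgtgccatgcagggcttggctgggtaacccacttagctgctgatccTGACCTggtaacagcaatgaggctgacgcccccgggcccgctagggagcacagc
Foxa1, chr12:57546062-57546361, minus strand: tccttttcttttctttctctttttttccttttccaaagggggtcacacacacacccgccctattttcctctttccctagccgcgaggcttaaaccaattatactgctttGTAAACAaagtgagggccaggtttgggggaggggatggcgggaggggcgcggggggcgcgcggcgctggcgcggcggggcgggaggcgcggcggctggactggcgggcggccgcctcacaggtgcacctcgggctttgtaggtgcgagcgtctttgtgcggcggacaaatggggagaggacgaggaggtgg
Foxa2, chr2:148045415-148045714, minus strand: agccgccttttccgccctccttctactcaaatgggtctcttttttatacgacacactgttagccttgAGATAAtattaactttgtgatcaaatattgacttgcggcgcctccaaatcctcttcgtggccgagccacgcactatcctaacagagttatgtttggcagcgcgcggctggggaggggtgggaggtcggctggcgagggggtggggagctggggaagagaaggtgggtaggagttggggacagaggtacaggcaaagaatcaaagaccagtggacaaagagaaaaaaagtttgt
Sox2, chr3:34649745-34650044, plus strand: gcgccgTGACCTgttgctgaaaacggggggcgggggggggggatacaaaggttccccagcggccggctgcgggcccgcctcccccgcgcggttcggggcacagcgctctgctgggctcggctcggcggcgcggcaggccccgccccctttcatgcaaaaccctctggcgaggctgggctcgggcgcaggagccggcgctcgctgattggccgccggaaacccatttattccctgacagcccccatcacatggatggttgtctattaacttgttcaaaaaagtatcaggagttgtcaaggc

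The 7 promoters were searched on both strands for the forkhead motif TGTTTAC, the GATA motif AGATAA, the T-box motif AGGTGTGA, the SOX motif ACAATGG, the NKX2 motif CAAGTG, the E-box CACGTG bound by clock activators, and the short site AGGTCA bound by REV-ERB and ROR receptors. No promoter held more than 1 match, so no matches overlapped. Foxa1 held the forkhead motif at position -141 from the start site, on the minus strand of the window, a motif found in 3.65% of all 32851 promoters. The GATA motif, in 11.2% of all promoters, was at -183 in the Foxa2 promoter shown, which was chosen because it held a match. The Foxa2 promoters not shown held no match to any of these motifs. The receptor site AGGTCA, in 16.3% of all promoters, was at -4 in Nkx2-1 and at -244 in Sox2, in both on the opposite strand as TGACCT. The letters of the T-box, SOX, NKX2 and E-box motifs were in none of the 7 windows, and they are in 1.28%, 3.66%, 13.6% and 7.15% of all promoters. Of the promoters shown, Foxa1 and Sox2 were the richer in CG dinucleotides, with 26 and 27, against 12 in Nkx2-1, 13 in Foxa2 and a median of 7 over all promoters. The Foxa2 promoters not shown had 12 and 23.

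Sox9, which marks the distal tips in the embryo and is the master factor of cartilage, lies on chromosome 11 (112782224 to 112787760, plus strand), 14.2 Mb from Zpbp2. It had the fewest counts of the factors, 130, 82 and 85 in WT1 to WT3 and 50, 48 and 35 in KO1 to KO3. In CPM it was at 1.78, 1.17 and 1.42 in WT and at 0.793, 0.774 and 0.599 in KO, so that every KO library was below every WT library and WT1 was the highest. The means were 1.45 ± 0.305 CPM (n = 3, SD) and 0.740 ± 0.0751 CPM (n = 2, SD). The log2 FC of -0.97 (SE 0.25, 95% interval -1.60 to -0.34) was the largest in size among the 10, with an edgeR adjusted p of 0.0892, and of 0.0258 with 6 separate libraries.

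Cartilage genes, which use SOX9, also summed to less in the KO libraries. The 9 of 11 tracheal cartilage genes in the table summed to 8.24, 4.23 and 13.4 CPM in WT and to 1.47, 1.81 and 1.52 CPM in KO. Of the 7 that were tested 6 had estimates below 0 and 0 were called, against 3 of 5 called lower with 6 separate libraries (Acan, Col2a1 and Comp). By the average of the WT and KO means the most abundant were Comp (log2 FC -3.38, adjusted p 0.0993) and Col11a1 (log2 FC -1.52, adjusted p 0.214). Col2a1, the main collagen of cartilage and named here after its values were seen, was covered by 82, 57 and 58 counts in the WT libraries and by 3, 19 and 5 in the KO libraries (adjusted p 0.0651). The part of cartilage transcripts in the Sox9 difference was not tested. In whole lung, fewer cells of a type and less RNA per cell cannot be told apart, for Sox9 as for the other factors.

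Sox9 was the one factor whose level ranged by more than 1 on the log2 scale over the 6 libraries (1.57). The genes closest to its pattern, by Euclidean distance of log2 CPM centred over the 6 libraries among 14400 genes at 1 CPM or more in each, were Fabp3 (distance 0.31), Adam11 (0.34) and Cdh2 (0.35). Fabp3, a fatty acid carrier of muscle and fat, was at 31.4, 21 and 22.9 CPM in WT and at 11.7, 12.1 and 11.4 CPM in KO, and Cdh2, a cadherin of heart and mesenchyme, was at 21.8, 13.9 and 13.5 CPM and at 7.90, 7.51 and 6.47 CPM.

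Foxp2, a forkhead repressor of the distal epithelium, spans chromosome 6 from 14901349 to 15441977 on the plus strand. It was at 10.3, 11.1 and 11 CPM in WT and at 8.99, 9.54 and 8.99 CPM in KO, with all KO libraries below all WT libraries. Foxp2 had a log2 FC of -0.24 (SE 0.09, 95% interval -0.46 to -0.01), with an edgeR adjusted p of 0.170, and of 0.0771 with 6 separate libraries. With an offset for gene length and GC content it was 0.07 (adjusted p 0.717). Foxp2 has the longest merged exons (16.35 kb, against 2.06 to 6.51 kb for the others) and the lowest GC content (42.6%, against 49.3% to 57.0%) of the 10.

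Gata6, a zinc finger factor of both epithelium and vessel wall, lies on chromosome 18. It was at 41.3, 37.3 and 36.1 CPM in WT and at 35.1, 40.5 and 39.8 CPM in KO, and the groups overlapped. The log2 FC was -0.02 (SE 0.09, 95% interval -0.26 to 0.22, edgeR adjusted p 0.927), and its sign changed between alternatives. The antisense gene 1010001N08Rik shares 93 bases of exon with it (1.4% of its exons).

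**Figure D2:**
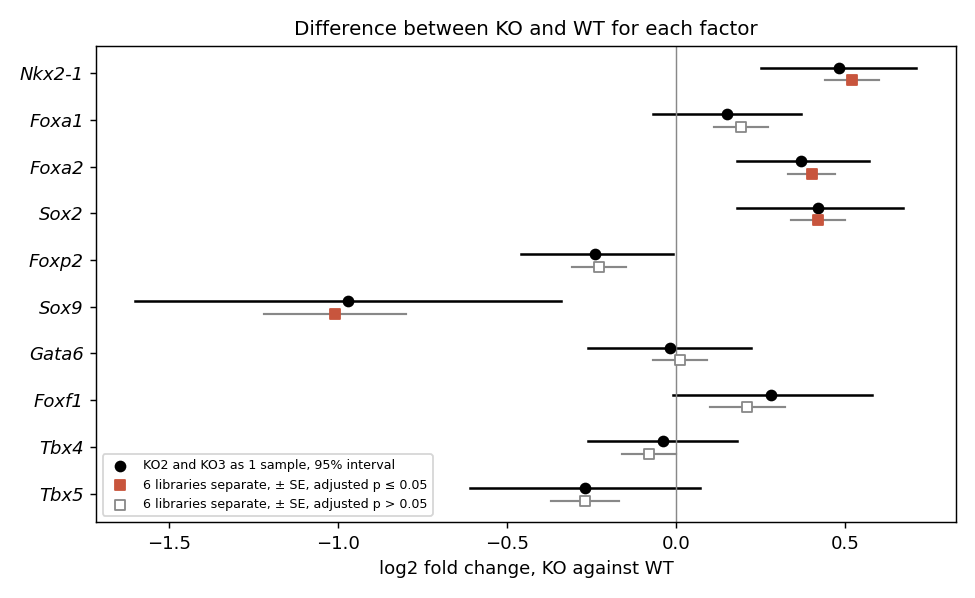
Log2 fold change of KO against WT for each factor, with KO2 and KO3 as 1 sample (circles with 95% intervals) and with 6 separate libraries (squares ± SE, filled where the adjusted p was at most 0.05). Filled squares are Nkx2-1, Foxa2 and Sox2 to the right of 0 and Sox9 to the left, and no factor passed with KO2 and KO3 as 1 sample.

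Among the mesenchymal factors, Foxf1 lies on chromosome 8 (121084386 to 121088144, plus strand). It was at 219, 215 and 226 CPM in WT and at 303, 236 and 228 CPM in KO. KO1 stood far above the others, and KO2 and KO3 lay just above the highest WT library. Foxf1 had a log2 FC of 0.28 (SE 0.12, edgeR adjusted p 0.198), and without KO1 it was 0.07 (adjusted p 0.545, with 1 KO sample left and the spread taken from WT). Fendrr, the noncoding gene that starts 1276 bases away on the opposite strand, was at 351, 322 and 290 CPM in WT and at 314, 385 and 408 CPM in KO (log2 FC 0.15, adjusted p 0.529). The ratio of Foxf1 to Fendrr counts was 0.964 in KO1 and 0.560 to 0.780 in the other libraries. The miRNA gene Gm27530 on the opposite strand shares 98 bases with the exons of Foxf1 (4.1%) and had 9 counts over all libraries. Foxf2, the paralog of Foxf1 and named here after its values were seen, was likewise highest in KO1, at 58.3 CPM against 35.6 to 42.6 CPM elsewhere. The smooth muscle genes, of which Des and Acta2 are the most abundant, were also highest in KO1, at 1716 CPM, against 895 to 1442 CPM in WT and 1061 CPM in both KO2 and KO3, with 0 of 5 called. Endothelial genes were highest in KO1 too, at 3212 CPM, against 2949 to 3133 CPM in WT, 2644 CPM in KO2 and 2632 CPM in KO3. Fibroblast genes were at 5032 CPM in KO1, within the WT range, and at 4189 and 4183 CPM in KO2 and KO3. The part of these cell types in the Foxf1 value was not tested.

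Tbx4, a T-box factor of lung mesenchyme, lies on chromosome 11 (85886422 to 85916097, plus strand), 12.6 Mb from Zpbp2. It was at 103, 95.5 and 107 CPM in WT and at 106, 88.9 and 94.5 CPM in KO, and the groups overlapped. Tbx4 had a log2 FC of -0.04 (SE 0.09, 95% interval -0.26 to 0.18, edgeR adjusted p 0.821).

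Tbx5, a T-box factor of lung mesenchyme and of the heart, lies on chromosome 5 (119832668 to 119885219, plus strand). It was at 79.5, 61.0 and 62.3 CPM in WT and at 55.4, 56.5 and 56.3 CPM in KO. All KO libraries were below WT, and WT1 stood above the rest. Tbx5 had a log2 FC of -0.27 (SE 0.13, edgeR adjusted p 0.267), and without WT1 it was -0.13 (adjusted p 0.299).

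WT1 was also the library with the most cardiac transcripts. The 14 cardiomyocyte genes, led by Myh6 and Actc1, summed to 8173 CPM in WT1, to 3597 and 3361 CPM in WT2 and WT3 and to 1490 to 2160 CPM in KO, with all 14 estimates below 0 and 0 called, against 6 of 13 called lower with 6 separate libraries. The cardiac partners of TBX5, named here after their values were seen, had the same library at the top. Gata4 was at 17.3 CPM in WT1, 6.97 and 7.54 CPM in the other WT libraries and 4.76 to 5.4 CPM in KO, and Nkx2-5 was at 5.27, 1.54 and 1.78 CPM in WT and 0.50 to 0.713 CPM in KO. Their adjusted p values were 0.211 and 0.120, and 0.0881 and 0.0348 with 6 separate libraries. The part of cardiac transcripts in the Tbx5 value was not tested.

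**Figure D3:**
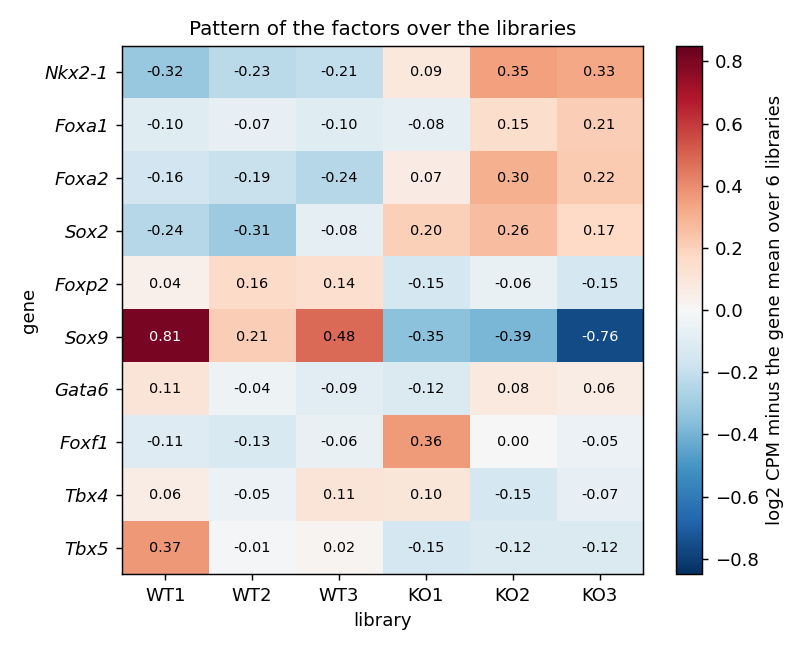
Log2 CPM of each factor in each library, minus the mean of that gene over the 6 libraries (red above, blue below). Nkx2-1, Foxa2 and Sox2 are below their means in all WT libraries and above them in all KO libraries, Foxf1 is highest in KO1 (0.36) and Tbx5 in WT1 (0.37).

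Per kilobase of merged exon the factors held a similar order in both genotypes. In WT, Foxf1 was at 91.3 ± 2.27 CPM per kb (n = 3, SD) and Nkx2-1 at 54.9 ± 2.19 CPM per kb, followed by Tbx4 at 29.9 ± 1.70, Foxa2 at 15.7 ± 0.467, Tbx5 at 14.5 ± 2.22 and Foxa1 at 13.6 ± 0.176 CPM per kb. Sox2 was at 5.89 ± 0.488, Gata6 at 5.87 ± 0.416, Foxp2 at 0.660 ± 0.0286 and Sox9 at 0.351 ± 0.0738 CPM per kb. The WT libraries of Tbx5 overlapped those of Foxa2 and of Foxa1, and those of Sox2 overlapped those of Gata6, while the other neighbours in this order did not overlap. In KO the order differed in that Foxa1, at 15.1 ± 1.90 CPM per kb (n = 2, SD), was above Tbx5, at 12 ± 0.156 CPM per kb. Among 18524 tested genes with a length, Foxf1 and Nkx2-1 were at the 98.2 and 96.2 percentiles of the WT level per kb, and Foxp2 and Sox9 at the 21.8 and 15.2 percentiles.

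The epithelial factors were set beside the cell types that use them. Alveolar type 2 genes summed to 21062 to 22007 CPM in WT and to 29838 to 31545 CPM in KO, with all 7 estimates above 0 and 3 called higher (Sftpa1, Sftpb and Sftpc). Against Sftpc, the surfactant protein gene with the most counts in these cells, the level of Nkx2-1 was 0.0123 to 0.0128 in WT, 0.0102 in KO1, 0.0129 in KO2 and 0.0128 in KO3, so the ratio in KO2 and KO3 was close to the WT range while that in KO1 was below it. Club cell genes, led by Scgb1a1 and Cyp2f2, summed to 28008 to 33166 CPM in WT, while KO1 had 36833 CPM, KO2 49127 CPM and KO3 48933 CPM, with 3 of 4 estimates above 0 and 0 called. Most of this sum is Scgb1a1, and Bpifa1 went the other way, from 1069 ± 207 to 389 ± 257 CPM (log2 FC -1.45, adjusted p 0.133), and its KO and WT libraries did not overlap. Ciliated cell genes, led by Sec14l3 and Tppp3, summed to 2074 to 2414 CPM in WT, while KO1 had 1954 CPM, KO2 2735 CPM and KO3 2670 CPM, so that KO1 was below every WT library. Of the 5 genes Tppp3 was called higher, and 2 estimates were below 0 (Dnah5 -0.36 and Sec14l3 -0.05). Alveolar type 1 genes summed to 4774 to 5150 CPM in WT and 5546 to 6066 CPM in KO, with 4 of 7 estimates above 0 and 3 called higher (Ager, Aqp5 and Hopx). The other 3 estimates were below 0, at -0.25 for Clic5, -0.25 for Akap5 and -0.13 for Rtkn2. Thyroid also uses Nkx2-1. The 7 thyroid genes summed to 16.3 to 17.6 CPM in WT and 12.5 to 14.5 CPM in KO, with 2 of 5 tested estimates above 0. The most abundant was Iyd, at 6.80 ± 0.471 CPM in WT and 7.85 ± 0.982 CPM in KO, followed by Tshr, which was called lower (log2 FC -2.39, adjusted p 0.0446). Pax8 had 0 counts in every library, and Tg was at 1.70 to 2.92 CPM (log2 FC -0.10, adjusted p 0.804), so Tshr was the only thyroid gene called. The part of these cell types in the Nkx2-1 and Foxa2 values was not tested.

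**Figure D4:**
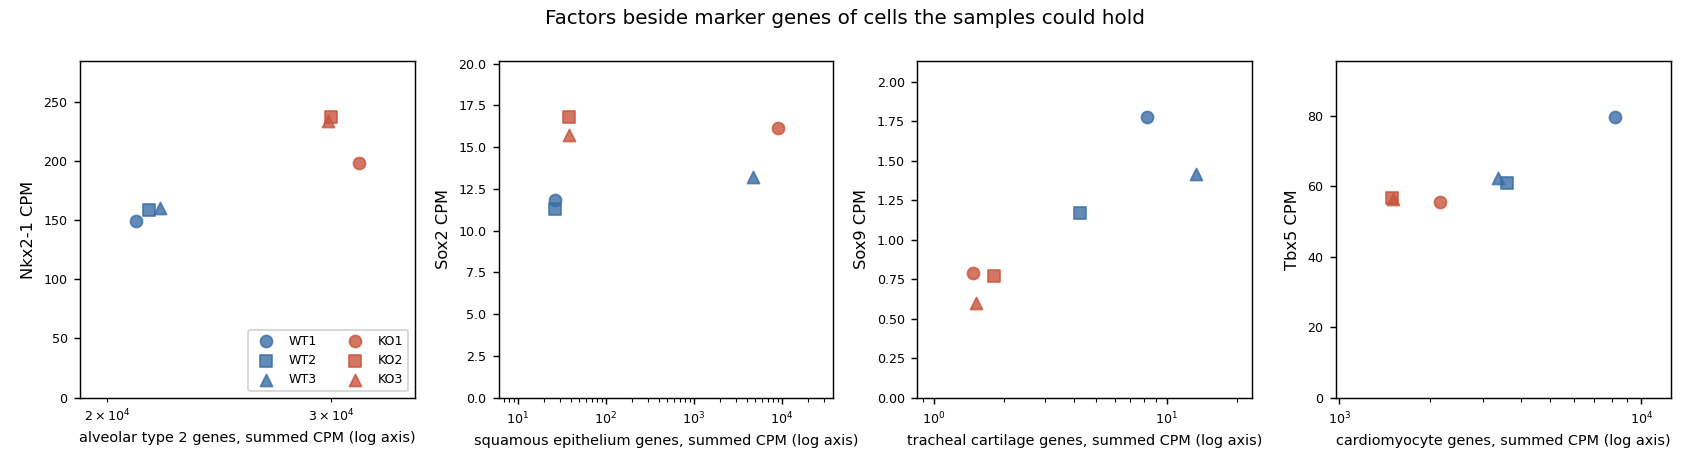
Level of a factor in CPM (from 0) against the summed CPM of marker genes (log axis) in the 6 libraries, WT in blue and KO in red, with a circle, square and triangle for libraries 1, 2 and 3 of each group. Nkx2-1 and alveolar type 2 genes are both higher in KO, Sox2 is at 13.2 CPM in WT3 and 16.1 CPM in KO1, the libraries with high squamous genes, Sox9 and cartilage genes are both lower in KO, and Tbx5 and cardiomyocyte genes are both highest in WT1.

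NKX2-1 and FOXA factors are known to activate surfactant and secretory genes. Of 16 epithelial target genes, 6 rose (Sftpa1, Sftpb, Sftpc, Sftpd, Ager and Muc1), 0 fell, 15 of 16 estimates were above 0 and the median log2 FC was 0.35. Beside the counts in this and the other lists, 1.38% of all tested genes were called higher and 0.906% lower. With 6 separate libraries these shares were 9.81% and 9.07%. Sftpc went from 12333 ± 207 CPM (n = 3, SD) to 18903 ± 865 CPM (n = 2, SD), a log2 FC of 0.62 (SE 0.05, edgeR adjusted p 0.0446). Sftpd, a collectin of the airspace, went from 643 ± 28.8 to 974 ± 46.3 CPM, a log2 FC of 0.60 (SE 0.07), and Muc1, an apical mucin, had a log2 FC of 0.48 (SE 0.05), both with an adjusted p of 0.0446. The adhesion gene Cdh1, present in all epithelium, had a log2 FC of 0.22 (SE 0.07, adjusted p 0.141). This list overlaps the cell type lists above and was drawn up with earlier results of these data known, so it is no independent evidence. No gene of any list was called when WT1, WT2 or WT3 was left out or with the offset for gene length and GC content, and without KO1 1 related gene was called. With 6 separate libraries 11 of the 16 target genes were called higher and 0 lower.

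Other factors of airway and alveolar epithelium had a median log2 FC of 0.27, with 28 of 36 estimates above 0. Of these 36, 3 rose and 0 fell, against 11 and 2 with 6 separate libraries. Hes1, a repressor downstream of Notch, rose from 48.9 ± 0.353 CPM (n = 3, SD) to 102 ± 25.5 CPM (n = 2, SD), a log2 FC of 1.07 (SE 0.15, edgeR adjusted p 0.0474). Hopx, of alveolar type 1 cells, rose by a log2 FC of 0.42 (SE 0.06, adjusted p 0.0466), and Irx3, a homeobox factor, by 0.61 (SE 0.08, adjusted p 0.0446). The abundant Stat3 and Tead1 had log2 FC values of -0.05 and -0.45, with adjusted p values of 0.669 and 0.0523.

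Paralogs of the 10 factors in the same families had a median log2 FC of 0.06 over 30 tested genes, with 20 above 0 and 0 called by edgeR, with 9 of 30 by the p before adjustment, near the 27.3% of all tested genes. With 6 separate libraries 4 were called higher (Foxp4, Sox17, Sox18 and Tbx2) and 3 lower (Nkx2-5, Sox5 and Tbx20). By the average of the WT and KO means the most abundant were Tbx2, from 304 ± 28.2 to 380 ± 16.5 CPM (log2 FC 0.32, adjusted p 0.112), Gata2 and Tbx3 (0.12 and 0.15, adjusted p 0.481 and 0.462).

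Mesenchymal and endothelial factors had a median of 0.01 over 32 genes, of which 2 fell and 0 rose, against 8 and 2 with 6 separate libraries. Meox1, a homeobox factor of mesenchyme, fell from 20.9 ± 0.939 CPM (n = 3, SD) to 10.8 ± 0.393 CPM (n = 2, SD), a log2 FC of -0.95 (SE 0.08, edgeR adjusted p 0.0446), and Zeb2 had a log2 FC of -0.40 (SE 0.05, adjusted p 0.0446). The abundant Klf2, Klf4 and Zeb1 had log2 FC values of 0.57, 0.27 and -0.23 and were not called.

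Of the 15 genes of the signals that pattern the lung, 1 fell and 0 rose, against 2 and 2 with 6 separate libraries, with a median of 0.04. Ptch1, the hedgehog receptor and itself a hedgehog target, was at 81.9, 84.1 and 82.5 CPM in WT and at 50.3, 52.6 and 50.3 CPM in KO, a log2 FC of -0.70 (SE 0.04, edgeR adjusted p 0.0342). Its ligand Shh was at 8.39 to 10.2 CPM in WT and 11.1 to 17.9 CPM in KO (log2 FC 0.65, adjusted p 0.147, and 0.0439 with 6 separate libraries), and Foxf1, which answers to this pathway, had the values given above. Other genes of the hedgehog pathway, named here after their values were seen, were not called. Hhip had a log2 FC of -0.37 (adjusted p 0.0961, and 0.031 with 6 separate libraries). Gli1, Gli2, Gli3 and Smo had log2 FC values of -0.07, 0.04, -0.09 and -0.08. The abundant Ctnnb1, Fgfr2 and Bmp4 were not called, and Fgf10, the branching signal downstream of TBX4 and TBX5, had a log2 FC of -0.08 (adjusted p 0.653).

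**Figure D5:**
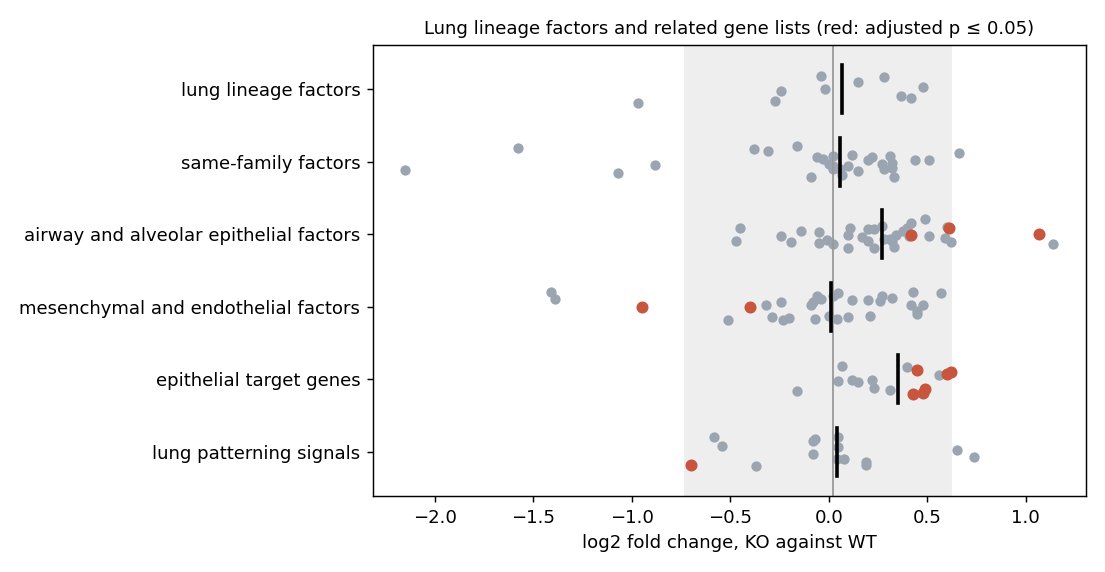
Log2 fold change of KO against WT for the 10 factors and the related gene lists, with each point a tested gene, red points at an adjusted p of at most 0.05, black bars for list medians and grey shading from the 5th to the 95th percentile of all tested genes (-0.73 to 0.62). The median is highest for the epithelial targets (0.35), and the 10 factors have no red point.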

How the data were processed

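Lung RNA of 3 WT and 3 KO mice was sequenced, and groups and replicate numbers were taken from the labels. The authors deposited raw counts per gene. Per the study's methods and the submitters' processing notes, reads were trimmed (Trimmomatic 0.36), aligned to GRCm38 (mm10) with STAR 2.5.3a and counted with HTSeq 0.6.0, and Picard 2.9.0 is also listed. The annotation and the strand setting were not given in the sources used here, so counts of overlapping and antisense genes are uncertain. Duplicate reads are not independent molecules, so statements on counting noise cover counting error only.

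The tests used edgeR 4.0.16 under R 4.3.3 (filterByExpr, TMM scaling, quasi-likelihood test, two-sided, Benjamini-Hochberg adjustment over all tested genes), with the fit tested on simulated data. CPM uses TMM-scaled library sizes. KO2 and KO3 were summed in fits and averaged in means. Each library has its own identifier in the labels and the methods speak of separate mice, but KO2 and KO3 were merged on their near-identical counts, and the 6 libraries were also fitted separately. GENCODE M21 (GRCm38), in which 97.5% of the table's identifiers were found, gave positions and exon lengths. DESeq2 1.42.0, the edgeR exact test, other scalings and filters, a replicate block, an offset for gene length and GC content, a squamous epithelium term and leaving out libraries were alternatives.

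The factors and gene lists were chosen with earlier results of these data known. Named were all 10 factors, from each list of factors, targets and signals the called genes (at most 5) and the 3 most abundant (by the average of the WT and KO mean CPM), and the 2 most abundant of marker lists, marker genes at 0 in every library, and genes whose exons overlap a factor. The neighbours Fendrr and Sox2ot were added by position. Sftpa1, Aqp5, Cdh1, Shh, Fgf10, Dcn, Clic5, Akap5, Rtkn2, Bpifa1, Dnah5, Acan, Foxp4, Sox5, Sox17, Sox18, Tbx20, Lipe, Pck1, Plin1 and Tg were named after their values were seen, as were those so marked in the text.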

Additional observations from a re-analysis of the deposited data

How the results depend on the processing

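Directions held in every alternative for Nkx2-1 (log2 fold change 0.35 to 0.61), Foxa1 (0.01 to 0.27), Foxa2 (0.23 to 0.46), Sox2 (0.31 to 0.49), Foxf1 (0.07 to 0.46), Tbx5 (-0.35 to -0.13) and Sox9 (-1.11 to -0.80). Gata6 turned to 0.01 with 6 separate libraries and in the replicate block, 0.02 with the length and GC offset and with the squamous term and 0.03 without WT3 and KO1, and ran from -0.06 to 0.07 when single libraries were left out (0.04 without WT1, 0.07 without KO1). Tbx4 turned to 0.06 without KO2 and KO3, and Foxp2 to 0.07 with the length and GC offset.

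Of the 10 factors 2 were called with 10 counts in every library, 4 with DESeq2 and with 6 separate libraries, 3 with the squamous term and without WT3 and KO1, and 1, Nkx2-1, in the replicate block. The replicate numbers do not pair the libraries (correlations of deviations -0.48, 0.56 and -0.65). Called over all genes were 937 (5.54% of those tested) with 10 counts in every library, 3875 (21.5%) with DESeq2, 209 (1.12%) with the exact test, 3402 (18.9%) with 6 separate libraries, 1157 (6.42%) in the replicate block, 1926 (10.3%) with the squamous term and 2256 (11.9%) without WT3 and KO1. The length and GC offset and leaving out KO2 and KO3 left 0, though 3993 and 5070 genes had a p of 0.05 or less before adjustment. Leaving out 1 library left 0 (any WT library) to 418. Of the related genes 12 were called, and 7 with no filter, 19, 48, 4, 45, 17, 32, 34, 0 and 0 in the order above, and 0 to 12 without 1 library. The causes were not tested. The alternative without WT3 and KO1 was chosen after the data were seen. It, the fit without KO1 and the fit without KO2 and KO3 each have 1 KO sample, assumed to vary like the WT samples, so their calls do not bear on stability.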

Other observations

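Adipocyte genes, led by Car3 and Cfd, summed to 1236 to 1789 CPM in WT and 366 to 451 CPM in KO, with 3 of 10 called lower (Lipe, Pck1 and Plin1). Hepatocyte genes, led by Alb and Apoa1, summed to 2.99 to 4.02 CPM in WT, 6.77 CPM in KO1 and 46.1 CPM in both KO2 and KO3. Erythroid genes, led by Hbb-bs and Hba-a1, summed to 2145 to 4942 CPM in WT, with KO1 at 3579, KO2 at 16923 and KO3 at 17577 CPM. Mesothelial genes, led by Upk3b and Msln, summed to 266 to 286 CPM in WT, with KO1 at 236, KO2 at 409 and KO3 at 413 CPM. Fibroblast genes, led by Inmt and Npnt, were at 4492 to 5041 CPM in WT and 4183 to 5032 CPM in KO, with 1 of 8 called lower (Dcn), and endothelial genes, led by Cdh5 and Pecam1, at 2949 to 3133 and 2632 to 3212 CPM.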
